A study of Mus musculus with 2 samples.

Results

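Genes for matrix metalloproteases (MMPs), their tissue inhibitors (TIMPs), and the ADAM and ADAMTS proteases were compared between mammary epithelial cells of Cuzd1-null and Cuzd1-heterozygous mice. Members were the probe sets whose only annotated gene symbol is Mmp, Timp, Adam or Adamts followed by a digit. This rule, which uses no measured value, found 116 of the 45037 non-control probe sets on the array, for 65 of 18193 named genes. Another 5 probe sets that name an Adam gene together with a second gene were not used.

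The heterozygous group was a pool of cell RNA from 5 Cuzd1 heterozygous littermates, and the null group a pool from 5 Cuzd1-knockout (null) mice. Both were of predominantly C57BL/6 background after repeated backcrossing, and all females were at day 18 of pregnancy, when alveoli fill the gland. Inguinal glands were pooled and shaken for 2 h with hyaluronidase at 100 U/ml and collagenase at 1.5 mg/ml, then pelleted and washed, and no sort is recorded. Each pool was hybridised to 1 array, 2 arrays in all, so no value has a replicate error, no test was possible, and every difference below is one between these 2 pools.

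MMPs are secreted or membrane-bound zinc proteases that cut collagens and other matrix proteins. They are made as inactive precursors, and TIMPs block the active enzymes. ADAMs are membrane proteins, many of which release growth factors and receptors from the cell surface, and ADAMTS proteases are their secreted relatives that act on proteoglycans, procollagens and microfibrils. In the mammary gland these enzymes are known for remodelling the stroma during branching and for dismantling the basement membrane during involution.

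The values are MAS5 signals, which are linear intensities scaled to the same average on both arrays. A signal was treated as background when it lay at or below its array's median, here called the floor, which was 34.2 units on the heterozygous and 32.5 units on the null array. Ratios are log2 of null over heterozygous with signals raised to the floor, and for a gene with several probe sets the one brightest on average was used. A gene counted as measured when 1 array or both were above the floor. The signal of the targeted gene Cuzd1 was 32.4 units in the heterozygous and 34.0 units in the null pool, next to the floor on both, so it does not check the labels.

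The labelled cell type was visible in both pools. Among 8 luminal markers, all were measured, with Csn2 (beta-casein) at 14669 units in heterozygous and 13592 units in null cells and Krt8, a luminal keratin, at 8520 and 8875 units. The luminal list had a median log2 ratio of -0.03, or 0.19 when the null array was rescaled to the hybridization controls, RNAs spiked into both hybridizations in equal amounts by the usual protocol. Other cell types were present as well: all 8 fibroblast, all 8 endothelial and all 9 macrophage markers were measured. Fewer cells of a type and less RNA per cell cannot be told apart in such pools.

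Of the 65 member genes, 32 were measured (49.2%, against 65.4% of all genes), 26 of them above the floor on both arrays. Measured members were 7 of 18 MMP genes, 4 of 4 TIMPs, 10 of 28 ADAMs and 11 of 15 ADAMTS genes. A difference of at least 2-fold was found for 2 members, Mmp12 and Mmp13, both lower in the null pool, and for 0 members in the other direction. Of all measured genes, 2.15% were at least 2-fold apart, made up of 1.03% that were lower and 1.12% that were higher. Over the 32 measured members the log2 ratios had a median of 0.09 (quartiles -0.22 and 0.33), against 0.03 over all 11893 measured genes. At 1.5-fold, 5 members were higher (Mmp2, Mmp3, Adamts3, Adamts10 and Adamts16; 5.83% of all measured genes) and 3 lower (Mmp12, Mmp13 and Adamts8; 4.93% of all), together 25% of the measured members against 10.8% of all measured genes. Adamts3, Adamts16 and Adamts8 each had 1 array below the floor, so their ratios are bounds. Among the 26 members above both floors the share was 19.2%, while the 10.8% also covers genes with 1 array below the floor. The measured members had a median signal of 128 units, below the 187 units of all measured genes, and low signals scatter more.

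**Figure D1:**
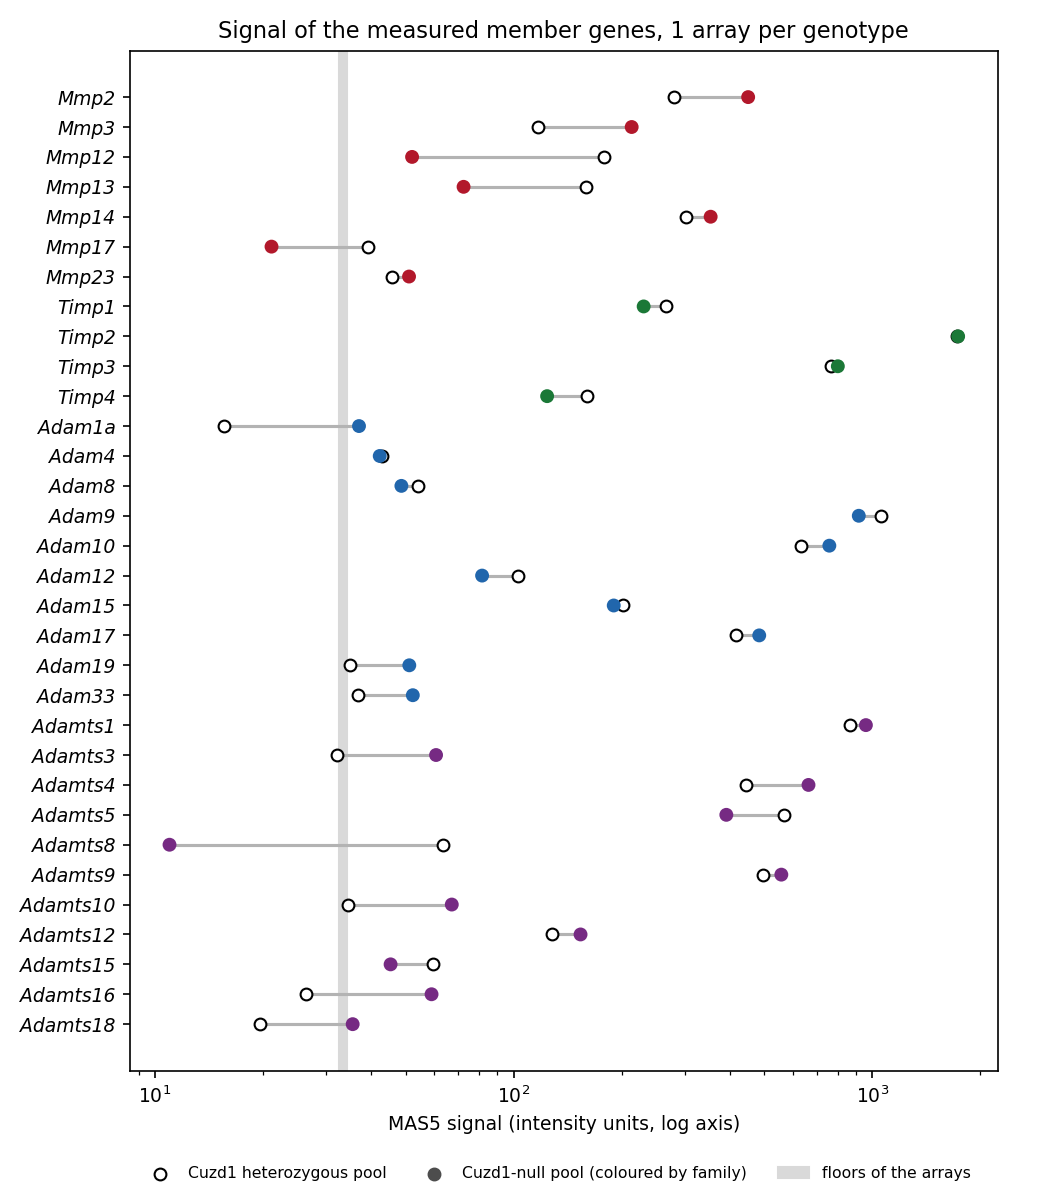
MAS5 signal (log axis, intensity units) of each of the 32 measured member genes in the heterozygous pool (open circles) and the null pool (filled circles, coloured by family), 1 array each, with the floors of both arrays as a grey band. The widest gaps between points above the floor belong to Mmp12 and Mmp13, whose null signals lie to the left.

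Mmp12, Mmp13 and Mmp3 are shown first by their promoters, because these 3 genes stand near each other in a run of Mmp genes on chromosome 9 and carried the lowest and one of the highest ratios of the members. In the RefSeq gene order of GRCm38.p6 the run reads Mmp13, Mmp12, Mmp1b, Mmp3, Mmp1a, Mmp10, Mmp8, Mmp27, Mmp20 and Mmp7, with Mmp27 not analysed here. The 120 bases before each annotated start are given 5′ to 3′ on the plus strand, from RefSeq GRCm38.p6, with the match to TGANTCA in capitals. That pattern covers the binding sites of AP-1, the FOS and JUN dimer, and reads the same on both strands.
Mmp13, chr9:7272394-7272513, plus strand: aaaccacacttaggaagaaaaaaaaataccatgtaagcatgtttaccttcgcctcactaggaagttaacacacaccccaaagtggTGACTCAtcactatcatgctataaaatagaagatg
Mmp12, chr9:7347254-7347373, plus strand: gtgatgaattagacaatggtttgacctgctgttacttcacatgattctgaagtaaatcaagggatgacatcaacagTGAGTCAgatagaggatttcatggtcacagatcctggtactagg
Mmp3, chr9:7445702-7445821, plus strand: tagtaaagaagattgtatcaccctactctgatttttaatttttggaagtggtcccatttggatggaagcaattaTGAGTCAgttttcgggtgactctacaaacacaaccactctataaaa

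The match began 35 bases before the start in Mmp13, 44 bases in Mmp12 and 46 bases in Mmp3. A second annotated start of Mmp12 had no match in its window. Of the 37 member genes with an entry in the promoter table (250 bases before to 50 after the start), 11 held TGANTCA. Counted per promoter, since some genes have several starts, this was 11 of 42 (26.2%), against 7.81% of all 32851 promoters in the table. Among the 9 genes of the chromosome 9 run with an entry, 8 held it: Mmp13, Mmp12, Mmp1b, Mmp3, Mmp1a, Mmp10, Mmp20 and Mmp7, but not Mmp8. Among the other 28 members with an entry 3 did, namely Adam19, Adam1b and Adam25. The match read TGAATCA in Mmp20 and Adam25, and TGAGTCA or TGACTCA in the others. In Adam1b it lay after the start. Of these 11 genes, Mmp12, Mmp13, Mmp3 and Adam19 were measured, and their ratios lay on both sides of 0, as the values below show. A match describes letters and was not tested for binding.

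Mmp12, the macrophage elastase, read 178 units in the heterozygous and 52.1 units in the null pool. The null pool was 3.42-fold lower, a log2 ratio of -1.77, the 15th lowest of the 11893 measured genes. The robust SD of the ratios of genes with similar signal was 0.37. A single probe set reads Mmp12, so no other probe set checks it.

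The macrophage list had its median on the other side of 0. Of 9 listed, 6 were higher and 3 lower in the null pool, with a median log2 ratio of 0.29 and a summed signal of 3268 units in heterozygous and 4046 units in null cells. On the hybridization-control scale 8 were above and 1 below 0, with a median of 0.51. Csf1r, the receptor for the macrophage growth factor CSF1, read 914 and 1293 units, and Adgre1, the F4/80 antigen, 267 and 251 units. None of the 9 was 2-fold apart, and Mrc1, the mannose receptor, was at the floor in heterozygous cells. The part of these markers in the Mmp12 ratio was not tested.

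Mmp13, the collagenase that starts the cleavage of fibrillar collagen in the mouse, read 159 units in heterozygous and 72.5 units in null cells. It was 2.19-fold lower in the null pool, a log2 ratio of -1.13 and the 75th lowest of all measured genes, again from 1 probe set and with a robust SD of 0.37 at that signal. With the null array rescaled to the hybridization controls the ratio was -0.91, and with a pseudocount of 16 in place of the floor -0.98, both short of 2-fold. The remaining collagenases, Mmp1a, Mmp1b and the neutrophil enzyme Mmp8, were below the floor on both arrays.

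With the floor raised to the 75th percentile (146 and 149 units), above the null signals of both genes, the ratios were -0.25 for Mmp12 and -0.09 for Mmp13. They are then set by the floor and not by the null signals.

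The gelatinase and the stromelysin pointed the other way. Mmp2, gelatinase A, which degrades type IV collagen of basement membranes, read 279 units in heterozygous and 450 units in null cells, a log2 ratio of 0.69 or 1.61-fold. Its other probe set read 245 and 409 units, a ratio of 0.74. Both probe sets therefore had the null signal above the heterozygous one by a similar factor. Genes of similar signal had a robust SD of 0.21.

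Mmp3, stromelysin-1, a broad matrix protease of the gland's stroma that is known from work on branching, read 117 units in heterozygous and 213 units in null cells. This is 1.82-fold higher, a log2 ratio of 0.87 from its only probe set, with a robust SD of 0.29 at that signal. On the hybridization-control scale the ratio was 1.09, past 2-fold. Mmp3 thus differed in the direction opposite to Mmp12 and Mmp13 in the same run of genes.

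Fibroblast markers were also higher in the null pool. At their brightest probe sets all 8 lay above 0, with a median log2 ratio of 0.59. Their summed signal was 7287 units in heterozygous and 11059 units in null cells. Fbln1 (0.02) and Col1a1 (0.06) were next to 0, and Pdgfra had 1.61 at its brightest and 0.04 at its other measured probe set. Dcn, the proteoglycan decorin, read 1677 and 2655 units, and Dpt, dermatopontin, 138 and 257 units. The 8 endothelial markers were likewise all above 0 at their brightest probe sets, with a median of 0.47 and sums of 1324 and 1945 units. Cdh5 had 0.29 there and -0.54 at its other measured probe set. B cell markers were measured for 4 of 6 listed members, all above 0 with a median of 1.33. Ighm, the IgM heavy chain, read 172 and 2252 units, and Jchain, the joining chain, 108 and 458 units. Other measured probe sets of Ighm had ratios from 0.28 to 3.81. Cd79a (0.32) and Ms4a1 (0.58) were below the floor in heterozygous cells, so their ratios are bounds from low signals. They were measured through the null array alone, so flooring largely set their sign, and only Ighm and Jchain were above both floors. The myoepithelial list was mixed, with 3 ratios above and 4 below 0 and a median of -0.11. On the hybridization-control scale 5 were above and 2 below 0, with a median of 0.11. Its basal keratins were lower in the null pool, with Krt14 at 1692 and 1050 units (-0.69) and Krt5 at 679 and 491 units (-0.47). Trp63 was higher at its brightest probe set (0.53), while its other probe sets had ratios from -0.71 to -0.09. The part of these lists in the ratios of Mmp2 and Mmp3 was not tested.

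**Figure D2:**
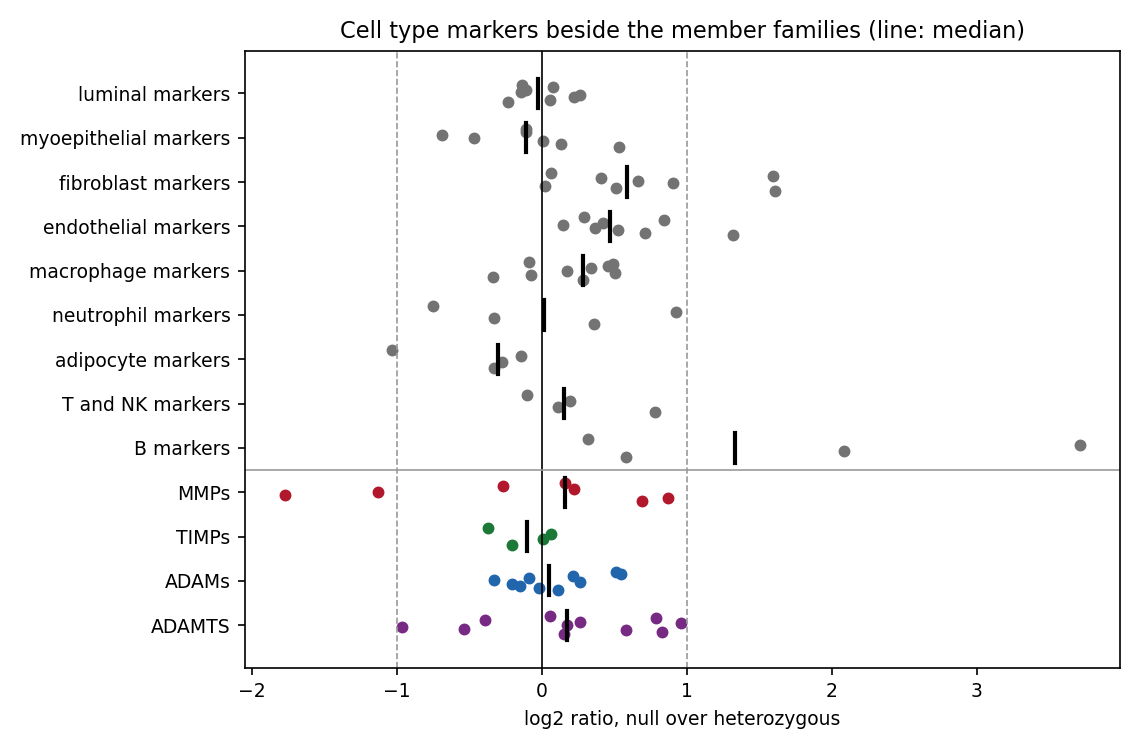
Log2 ratio (null over heterozygous) of measured cell type markers in grey and of the member families in colour, 1 point per gene with the median as a black line and dashed lines at 2-fold. All 8 fibroblast and all 8 endothelial markers lie right of 0, the macrophage median is 0.29, and the MMP points reach from -1.77 to 0.87.

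Mmp14, the membrane-type protease that activates pro-MMP2 at the cell surface together with TIMP2, read 303 units in heterozygous and 354 units in null cells, a log2 ratio of 0.22. A second probe set read 109 and 118 units (0.11). The ratio of the brighter probe set is near the robust SD of 0.21 at its signal. Mmp17, another membrane-type enzyme, read 39.2 units in heterozygous cells and 21.1 units, under the floor, in null cells. That bounds its difference at 1.21-fold or more. Mmp23 read 45.8 and 51.1 units, with a ratio of 0.16.

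The other 11 MMP genes were below the floor on both arrays and have no order here: Mmp1a, Mmp1b, Mmp7, Mmp8, Mmp9, Mmp10, Mmp11, Mmp16, Mmp19, Mmp20 and Mmp24. Among them, Mmp9, gelatinase B, read 16.9 and 23.3 units at its brighter probe set. Mmp7, matrilysin, an epithelial MMP, read 18.0 and 22.2 units. Neutrophil markers, a cell type that carries MMP8 and MMP9, were measured for 4 of 7 listed members, with 2 on each side of 0 and sums of 439 and 403 units.

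The TIMPs were all measured and none was near 2-fold apart. Timp1, the inhibitor most readily induced by cytokines, read 266 units in heterozygous and 230 units in null cells, a log2 ratio of -0.21 that became 0.01 on the hybridization-control scale. The robust SD at that signal was 0.25. No direction is therefore given for Timp1.

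Timp2, which both inhibits MMPs and bridges MMP14 to pro-MMP2, read 1726 and 1734 units at its brightest probe set, a ratio of 0.01. Its other 4 measured probe sets had ratios of 0.02 to 0.38. For example, 1 of these read 1131 and 1394 units (0.30), and another, which can match several transcripts, 996 and 1282 units (0.36). The Timp2 readings thus fell into some near 0 and some moderately above it, all on the same 2 arrays.

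Timp3, which is bound to the matrix and also inhibits ADAM17, read 767 and 801 units, a ratio of 0.06. Its 3 other probe sets had ratios of 0.09 to 0.27, all above 0. Timp4 read 160 units in heterozygous and 124 units in null cells, a ratio of -0.37, and 117 and 89.0 units at its other probe set, a ratio of -0.40. These paired readings differed from each other by less than the 0.21 robust SD between probe sets of 1 gene. Adipocyte markers, of a cell type known to make TIMP4, were measured for 4 of 6 listed members. Their floored ratios were all below 0, with a median of -0.30 and sums of 6981 and 6244 units. Fabp4, a fatty acid binding protein, made up most of these sums, at 6829 and 6169 units, and its other probe sets had ratios from -0.21 to 0.60. The remaining 3, Adipoq, Lep and Retn, read 39.4 to 66.6 units in heterozygous cells, and Adipoq and Lep were below the floor in the null pool. Adipoq and Lep were thus measured through the heterozygous array alone, and on the deposited scale flooring fixed their sign below 0. On the hybridization-control scale 3 of the 4 were below 0, with a median of -0.08, and the ratio of Timp4 was -0.15. The part of these markers in the Timp4 ratio was not tested.

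**Figure D3:**
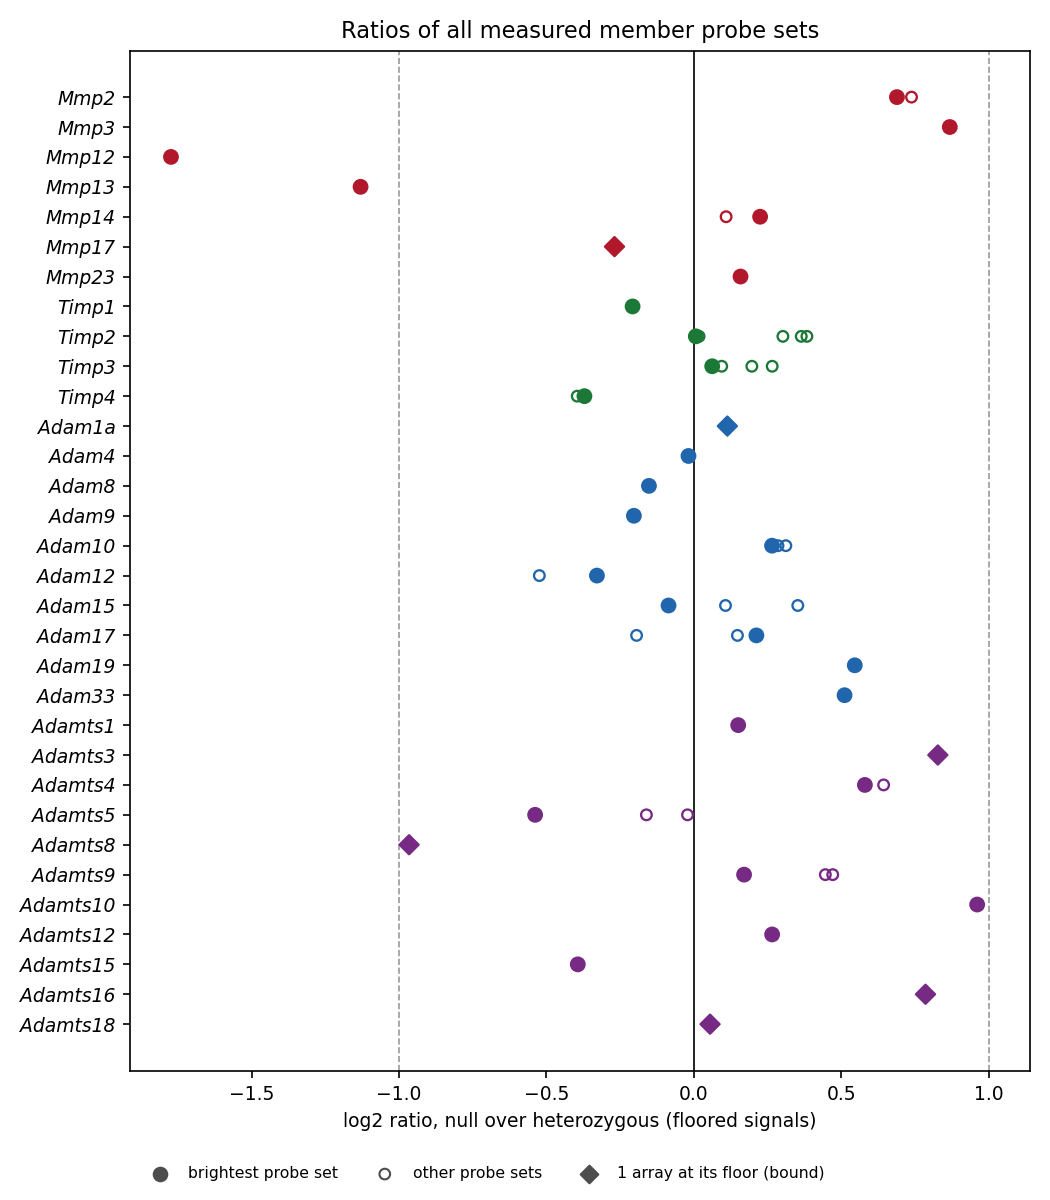
Log2 ratio (null over heterozygous, floored signals) of every measured probe set of the 32 measured member genes, with filled symbols for the brightest probe set, open circles for the others and diamonds where 1 array was at its floor. Dashed lines mark 2-fold, and the paired points of Mmp2 and of Timp4 lie close together while those of Adam15, Adam17 and Adamts5 are spread.

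ADAMs with an active zinc site were measured for 8 of 9 listed members, with 4 ratios above and 4 below 0 and none at 1.5-fold. On the hybridization-control scale 7 were above and 1 below 0, with Adam19 at 0.76 and Adam33 at 0.73 past 1.5-fold. Adam10, which sheds Notch receptors and several EGF family ligands, read 631 units in heterozygous and 758 units in null cells, a log2 ratio of 0.26. The other measured probe sets had 0.28 and 0.31, so the 3 readings were close. The robust SD of genes at that signal was 0.25.

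Adam17, the sheddase of TNF, amphiregulin and TGF-alpha, read 418 and 484 units, a ratio of 0.21. Its other probe sets had 0.15 (247 and 273 units) and -0.19 (181 and 158 units), which lie on opposite sides of 0. Adam9 read 1055 and 916 units, a ratio of -0.20 that was 0.02 on the hybridization-control scale. For neither gene did the readings give a difference beyond the scaling or the spread between probe sets.

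Adam12, a protease of mesenchymal cells in remodelling tissue, read 103 units in heterozygous and 81.6 units in null cells, a ratio of -0.33, and 54.0 and 37.6 units at its other probe set, a ratio of -0.52. The first of these lies within the robust SD of 0.39 at its signal and was -0.11 on the hybridization-control scale. Adam19 and Adam33 had ratios of 0.55 and 0.51, but from signals next to the floor (35.0 and 51.1 units, and 36.7 and 52.3 units), where the robust SD was 0.57. Adam15 had -0.09 at its brightest probe set and 0.11 and 0.35 at the others. Adam8, found mainly on leukocytes, read 54.0 and 48.6 units (-0.15).

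The sperm and testis ADAMs and the ADAMs without a zinc site were largely below the floor. Of the 7 listed without the site, among them Adam11, Adam22 and Adam23, which act as adhesion proteins in the nervous system, 0 were measured. Of the other 12, Adam1a and Adam4 were measured, with Adam1a at 15.5 and 37.0 units and Adam4 at 42.8 and 42.3 units. Among the 9 listed with a zinc site, Adam28 was below the floor on both arrays. The site was assigned by list and not checked in protein sequences, and the group of 12 was not divided by it.

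ADAMTS proteases that cut proteoglycans were measured for 6 of 7 listed members, with 3 ratios above 0 and 3 below. The unmeasured one, Adamts20, was below the floor on both arrays. Adamts4, an aggrecanase, read 444 units in heterozygous and 663 units in null cells, a log2 ratio of 0.58 or 1.49-fold. Its other probe set read 269 and 420 units, a ratio of 0.64. Both lie beyond the robust SD of 0.25 at that signal. Adamts5, a related aggrecanase, had the reverse sign at its brightest probe set, with 569 and 391 units and a ratio of -0.54. Its other probe sets had -0.16 (206 and 184 units) and -0.02 (340 and 335 units), so the size for Adamts5 hung on the probe set.

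Adamts1, a protease of versican and aggrecan, read 864 and 959 units (0.15). Adamts9 had ratios of 0.17 (495 and 557 units), 0.45 (201 and 274 units) and 0.47 (101 and 141 units), all above 0. Adamts15 read 59.6 and 45.4 units (-0.39). Adamts8 read 63.5 units in heterozygous cells and 11.0 units, under the floor, in null cells, at least 1.95-fold lower. Without a floor its ratio was -2.53, with the null signal at background.

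Of the 7 listed ADAMTS genes with other roles 4 were measured, while Adamts6, Adamts7 and Adamts19 were below the floor on both arrays. Adamts3, listed apart as a procollagen protease, was measured too. None of these measured genes had a ratio below 0, but only Adamts10 and Adamts12 were above the floor on both arrays. Adamts3, Adamts16 and Adamts18 were measured through the null array alone, so flooring the heterozygous signal largely set their sign. Adamts10, which binds fibrillin microfibrils, read 34.5 and 67.2 units, a ratio of 0.96 from a heterozygous signal next to the floor. Adamts3, which removes the N-propeptide of procollagens and acts in VEGF-C activation, was below the floor in heterozygous cells at 32.2 units and read 60.7 units in null cells, at least 1.77-fold higher. For Adamts16 the signals were 26.3 and 59.0 units, at least 1.72-fold higher. On the hybridization-control scale all 3 passed 2-fold, with 1.18, 1.05 and 1.005. Genes of such low signal had robust SDs of 0.52 to 0.57. Adamts12 read 128 and 154 units (0.27) and Adamts18 19.6 and 35.6 units (0.05 after flooring).

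**Figure D4:**
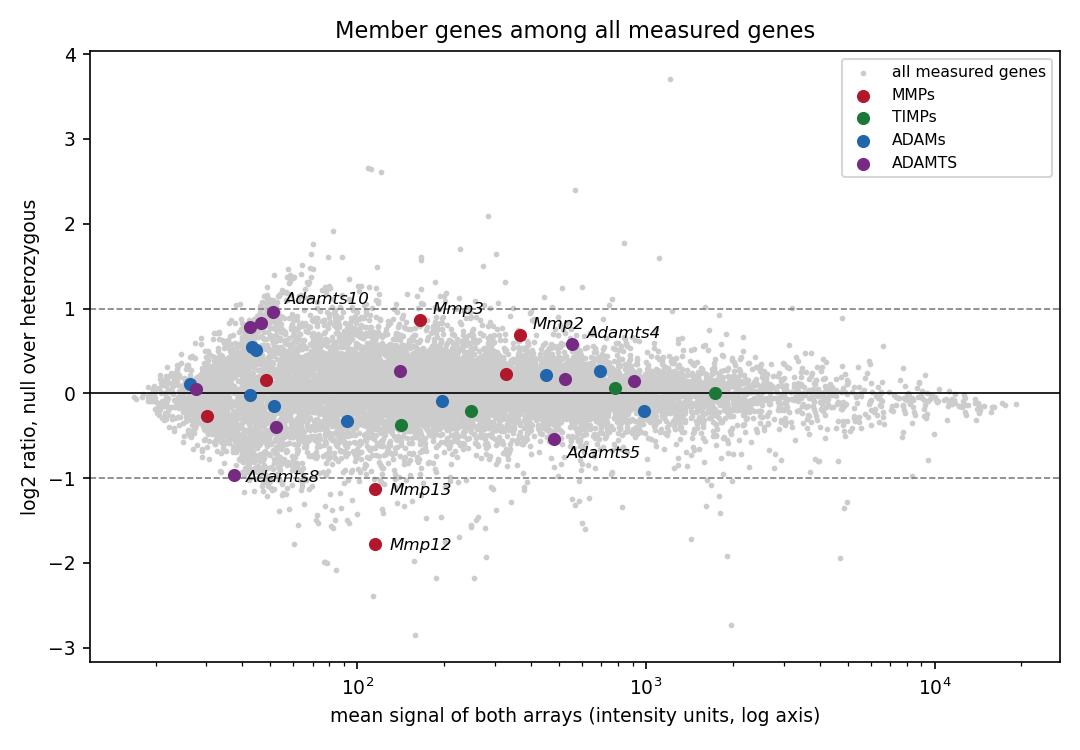
Log2 ratio (null over heterozygous) against mean signal (log axis, intensity units) for all 11893 measured genes in grey and the 32 measured member genes in colour by family, with dashed lines at 2-fold. Mmp12 and Mmp13 lie below the lower dashed line and no member lies above the upper one.

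Other genes of extracellular proteolysis were taken from 4 lists of activators and regulators. Of 43 listed, 29 were measured and 0 were 2-fold apart, with 17 ratios above and 12 below 0 and a median log2 ratio of 0.04, or 0.26 after rescaling to the hybridization controls. In the plasminogen system, which activates MMP precursors, Plaur, the urokinase receptor, read 450 and 326 units (-0.46) and Plat, tissue plasminogen activator, 141 and 105 units (-0.42). Plau, urokinase itself, and Plg, plasminogen, were below the floor on both arrays.

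Among convertases and activators, 14 of 16 were measured. St14, matriptase, an epithelial serine protease, read 2190 units in heterozygous and 1522 units in null cells, a ratio of -0.52, and Bsg, the MMP inducer basigin, 1894 and 2006 units (0.08). Pcolce, which enhances procollagen processing, read 163 and 263 units, a ratio of 0.70, but 0.07 at its other probe set. Furin, which cuts the propeptides of ADAMs and MMP14, read 378 and 348 units (-0.12), and Reck, a membrane inhibitor of MMPs, 151 and 166 units (0.14).

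The partners that carry ADAM10 and ADAM17 to the cell surface were all measured, 9 of 9. Tspan14, a tetraspanin partner of ADAM10, read 1040 and 1139 units (0.13), and Rhbdf1, an iRhom partner of ADAM17, 675 and 544 units (-0.31). Rhbdf2, the other iRhom, read 393 and 395 units (0.01). In the ADAM-like list, 4 of 8 were measured, with Adamdec1 at 275 and 363 units (0.40) and Adamtsl4 at 61.4 and 55.3 units (-0.15).

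Directions depend on the scaling of the arrays. The 18 probe sets for spiked-in hybridization controls had a median log2 ratio of -0.22, and rescaling the null array to them moved the median of all measured genes by 0.22. Of the measured members, 24 were then above and 8 below 0, in place of 19 and 13, and 4 passed 2-fold upwards (Mmp3, Adamts3, Adamts10 and Adamts16) while Mmp12 alone did so downwards. Over all genes the share of higher genes among those 2-fold apart went from 52.0% to 85.2%. The 5 members that changed sign were Adam4, Adam8, Adam9, Adam15 and Timp1. Mmp12 stayed 2-fold lower with -1.55, and the order of Mmp12, Mmp13, Mmp2 and Mmp3 was the same because a common factor moves each by the same amount.

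**Figure D5:**
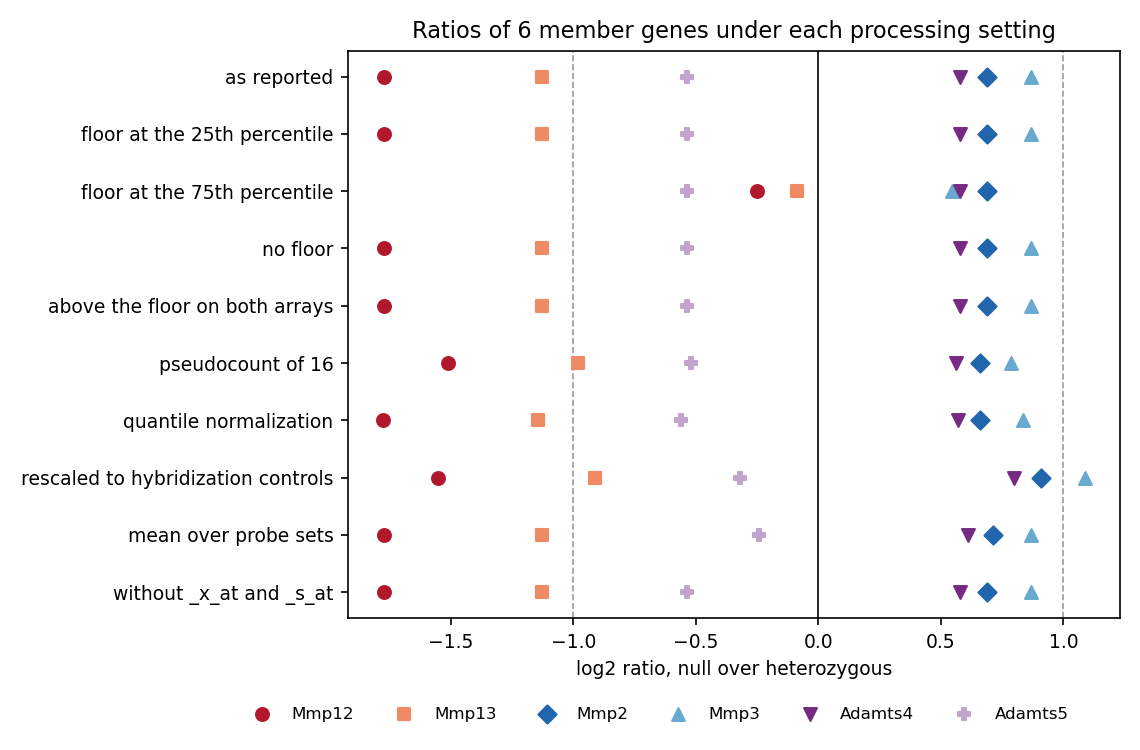
Log2 ratio (null over heterozygous) of Mmp12, Mmp13, Mmp2, Mmp3, Adamts4 and Adamts5 under each of 10 processing settings, with dashed lines at 2-fold. In all 10 settings Mmp12, Mmp13 and Adamts5 lie left of 0 and Mmp2, Mmp3 and Adamts4 right of it, and the floor at the 75th percentile brings Mmp12 to -0.25 and Mmp13 to -0.09.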

How the data were processed

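The authors deposited linear signal intensities. MAS5 and Affymetrix Expression Console (version 1) are the tools named for them, per the submitters' processing notes (genome build: not given in the sources used here). Without the top and bottom 2% of values the mean was 150.0 units on both arrays. Of 45101 probe sets, 64 were controls, 34958 had 1 gene symbol, 932 had several and 9160 were not listed in the platform's annotation. Symbols came from that table, updated by Entrez ID in RefSeq, which changed 0 member symbols.

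Signals were floored at each array's median over non-control probe sets. The probe set with the highest mean signal stood for its gene. No test was run, since precision is limited by having 2 arrays. Spread was described by the robust SD (from the median absolute deviation) of log2 ratios in 20 bins of signal, which also holds real differences. A second measure was the robust SD per probe set, 0.21, over 4722 genes with 2 probe sets above both floors. Among 12 member genes with such a pair, both ratios had the same sign in 11.

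All measured member genes were named. Partner genes were named where 2-fold apart, otherwise the 2 brightest of a list, with others and all markers chosen after their values were seen. The members and gene lists were chosen with earlier results of these data known. The procedure was tested on simulated data. Alternatives were other floors, a pseudocount, quantile normalization, rescaling to hybridization controls, mean ratios over probe sets, leaving out probe sets that can match several transcripts, and a 1.5-fold rule. Python 3.11.15, numpy 2.4.6 and pandas 2.3.3 were used.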

Additional observations from a re-analysis of the deposited data

How the results depend on the processing

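No paired analysis was possible because each genotype has 1 array, and for the same reason no array could be left out. Of the 32 measured member genes, 27 stayed on 1 side of 0 in every setting that gave them a value. The 5 exceptions were Adam4, Adam8, Adam9, Adam15 and Timp1. Other floors and a pseudocount can rarely turn a sign, and the rescaling moves all ratios upwards. The 27 are therefore no measure of how firm a direction is, and they include Timp2 at 0.01. With the floor at the 25th percentile 5 members were at least 2-fold lower and 6 higher, and 3 partner genes were 2-fold apart, with more genes of low signal measured (55 members in all). A floor at the 75th percentile left 0 members 2-fold lower. With no floor 2 members were 2-fold higher and 1 partner gene was 2-fold apart. Rescaled to hybridization controls, 1 member was 2-fold lower and 4 higher, and the median log2 ratio was 0.31 for members, 0.26 for partners and 0.25 for all measured genes. With a 1.5-fold rule 5 members were higher and 3 lower. Without probe sets that can match several transcripts, 3 members were 2-fold lower, the third being Adamts8 at -1.11. The median over members ran from 0.07 to 0.16 in the settings other than the rescaling. The depth behind an intensity is unknown, so differences among genes next to the floor cannot be told from background.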
